A study of Mus musculus with 8 samples.

Results

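Hox genes encode homeodomain transcription factors that stand side by side in 4 chromosomal clusters in mouse, Hoxa, Hoxb, Hoxc and Hoxd. Genes of the same number in different clusters are paralogues, and along a cluster the low numbers come on early and far forward in the embryo while the high numbers come on late and near the tail. In trunk mesoderm and spinal cord they give cells their position along the body, with Pbx and Meis proteins as DNA-binding partners, and Polycomb complexes keep them silent where they are not used. Primordial germ cells (PGCs), the embryonic founders of eggs and sperm, arise beside posterior mesoderm and are known for switching off the mesodermal programme, Hox genes included, when the repressor Prdm1 is induced.

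All genes whose symbol is Hox followed by a, b, c or d and a number were taken, which gave 38 of the 20153 gene identifiers in the deposited table. Hoxa held 11 of them (chr6:52155590-52260880, GRCm38), Hoxb 10 (chr11:96194316-96368256), Hoxc 9 (chr15:102921103-103036852) and Hoxd 8 (chr2:74668310-74765142). Levels are in FPKM, a read density scaled to transcript length and to the mapped fragments of the library, and a gene was called detected at 1 FPKM or more.

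The study compared 4 kinds of mouse cells by RNA sequencing, with 2 libraries each. Embryonic germ cells (EGCs) were the pluripotent lines 4 and 7, made from sorted E9.5 PGCs of the Oct4gfpXCD1 strain, carried to passage 6 in serum and LIF on feeder fibroblasts, with about 500 cells per library. iPGCs (1500 cells, from hanging drops) and PGCLCs (300 to 500 cells, from aggregates) were germ-cell-like cells made in culture from embryonic stem cells labelled BVSC at passage 21. The PGCs (about 250 cells), labelled endogenous, were of embryonic day 9.5, the Oct4gfpXCD1 strain and passage 0, so their strain differs from that of iPGCs and PGCLCs. The labels call the 2 libraries of a group biological replicates, and for EGCs each was another line; p-values measure only the spread between these libraries.

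Marker genes were set against the labels. Of 12 germ cell markers, EGC lines 4 and 7 had 8 and 9 detected, iPGC libraries 10 and 11, PGCLC libraries 11 and 11, and PGC libraries 10 and 11, and Sox17 was below 1 FPKM in every library. The summed level of that list was 221 and 353 FPKM in EGCs, 816 and 809 FPKM in iPGCs, 1706 and 846 FPKM in PGCLCs, and 665 and 1586 FPKM in PGCs. All 10 naive pluripotency markers were detected in each of the 6 culture libraries and 8 and 9 of them in PGCs, so that list did not separate EGCs from iPGCs and PGCLCs. Approximate depths, read from the steps between low FPKM values, lay between 9.38 and 21.7 M reads in 7 libraries and at 3.22 M reads in iPGC library 1. In a transcript of 2 kb, 1 read was worth 0.155 FPKM in that library and 0.0231 to 0.0533 FPKM in the others. PGC library 1 stood apart from PGC library 2 in the Hox genes and in markers of other cell types, so the PGC libraries are given separately throughout.

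Promoter sequences of 3 members show the kind of start site involved: Hoxa2, the highest member in PGC library 1, Hoxd3, the highest of the members detected in both PGC libraries, and Hoxd1, listed at 0 in every library. They were chosen after their values were seen. Each is the stretch of 250 bases before the RefSeq start on GRCm38.p6, printed 5′ to 3′ on the gene's own strand with CG dinucleotides in capitals.
Hoxa2, chr6:52164832-52165081, minus strand, 6 CG: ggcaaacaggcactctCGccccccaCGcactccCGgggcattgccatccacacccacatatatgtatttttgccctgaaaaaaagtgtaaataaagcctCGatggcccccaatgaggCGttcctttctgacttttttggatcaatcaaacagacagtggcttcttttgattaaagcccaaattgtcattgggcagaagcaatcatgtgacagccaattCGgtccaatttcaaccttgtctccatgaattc
Hoxd3, chr2:74711743-74711992, plus strand, 12 CG: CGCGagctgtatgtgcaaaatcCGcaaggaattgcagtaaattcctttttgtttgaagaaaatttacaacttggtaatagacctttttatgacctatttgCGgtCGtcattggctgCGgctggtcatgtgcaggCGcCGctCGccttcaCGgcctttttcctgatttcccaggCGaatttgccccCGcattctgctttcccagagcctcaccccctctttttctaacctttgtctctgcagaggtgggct
Hoxd1, chr2:74762730-74762979, plus strand, 24 CG: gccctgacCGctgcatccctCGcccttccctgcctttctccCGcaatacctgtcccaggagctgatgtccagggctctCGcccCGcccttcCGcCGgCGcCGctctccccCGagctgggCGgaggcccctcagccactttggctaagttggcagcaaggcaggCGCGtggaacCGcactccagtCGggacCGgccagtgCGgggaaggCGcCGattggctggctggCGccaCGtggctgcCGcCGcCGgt

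RefSeq windows were at hand for 21 of the 38 members, 23 windows in all. For 19 of them, a short stretch just after the start was found somewhere in a GENCODE transcript of the gene. The Hox windows held a median of 13 CG (2 to 35), against a median of 6 over 32851 windows of all genes, the CpG-rich start sites on which Polycomb complexes are known to act. The 7 windows of members detected in PGC library 1 held a median of 8 CG (6 to 18), and the 16 windows of the other members a median of 16.5 (2 to 35), a description with no test. Hoxb2, Hoxb3, Hoxb6, Hoxb7, Hoxb9, Hoxc5 and Hoxc10, also detected in that library, had no window and are missing from these medians. On either strand, the retinoic acid receptor half-site AGGTCA was found in 5 of the 23 Hox windows (21.7%, against 14.0% of all windows). The Cdx-type motif TTTATG was found in 4 (17.4%, against 10.8%), and the Pbx-Hox motif TGATTNAT in 2 (8.70%, against 2.82%). The Hoxa2 window held the Pbx-Hox motif, the Hoxd3 window held the other motifs in overlapping positions, and the Hoxd1 window held none of the 3. A match describes letters only.

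Hox transcripts were concentrated in 1 of the 8 libraries. Summed over the 38 genes, the level was 2.47 and 6.45 FPKM in EGC lines 4 and 7, 5.41 and 1.98 FPKM in iPGC libraries 1 and 2, 0.411 and 2.65 FPKM in PGCLC libraries 1 and 2, and 83.1 and 7.84 FPKM in PGC libraries 1 and 2. PGC library 1 lay far above the other 7, and PGC library 2 lay just above the highest culture library, EGC line 7. As group means the sums were 4.46 ± 2.81 FPKM in EGCs, 3.69 ± 2.43 FPKM in iPGCs, 1.53 ± 1.58 FPKM in PGCLCs and 45.5 ± 53.2 FPKM in PGCs (SD, n = 2 each), so the PGC spread exceeded the PGC mean. The Hox sum was 0.0459% of all FPKM in PGC library 1 and 0.00392% in PGC library 2.

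**Figure D1:**
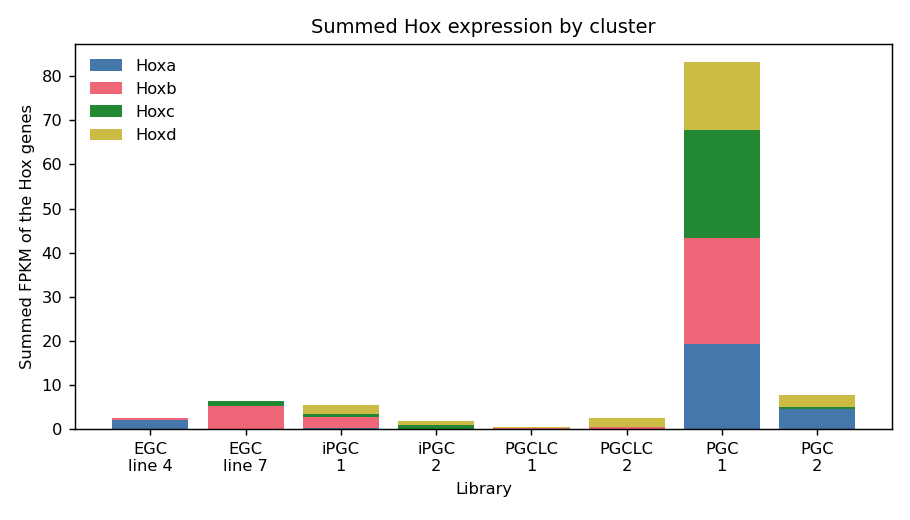
Summed FPKM of the Hox genes in each of the 8 libraries (vertical axis, linear, starting at 0), stacked by cluster. PGC library 1 reaches 83.1 FPKM with all 4 clusters represented, and no other library passes 7.84 FPKM.

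Counts of detected members gave the same picture. In EGC lines 4 and 7 there were 1 and 2 detected members, in iPGC libraries 1 and 2 there were 2 and 0, in PGCLC libraries 1 and 2 there were 0 and 1, and in PGC libraries 1 and 2 there were 14 and 3. The 14 members of PGC library 1 were 36.8% of the Hox genes, close to the 41.0% of all genes detected there, while the other libraries detected 0 to 7.89% of the Hox genes and 39.7 to 49.8% of all genes. Of those 14 members, 9 (64.3%) were detected in no other library, against 355 of the 8259 genes detected in PGC library 1 (4.3%). PGC library 1 gave the highest value for 18 of the 38 members, and it lay above all other libraries for 10.9% of all genes.

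At the other end, 8 members were listed at 0 in every library: Hoxa10, Hoxa13, Hoxb8, Hoxc9, Hoxc11, Hoxc12, Hoxd1 and Hoxd12. The other 30 of the 38 members were above 0 in at least 1 library, as were 15250 of all 20153 genes. These shares are similar, so genes at 0 throughout are not particular to the Hox genes. In culture, 21 members were listed at 0 in all 6 libraries, 32 in both EGC lines, 25 in both iPGC libraries and 29 in both PGCLC libraries. The matching shares of all genes were not computed for these culture counts. At this depth the files do not separate a silent gene from a very low one. Between the PGC libraries, 22 members were higher in library 1, 5 were higher in library 2 and 11 were listed at 0 in both. Of those 5, only Hoxa3 and Hoxd10 were detected in library 2, and the others stayed below 1 FPKM. The matching counts of all genes were not computed. Both PGC libraries lay above all 6 culture libraries for 9 members (23.7%), against 3.87% of all genes. Of these, only Hoxa3 and Hoxd3 were detected in both PGC libraries. For Hoxa4, Hoxa7, Hoxa9, Hoxb3 and Hoxd10 the lower PGC value was 0.0198 to 0.0709 FPKM against 0 in all cultures. Such values are worth a few reads at most, so this count rests largely on values near the floor.

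**Figure D2:**
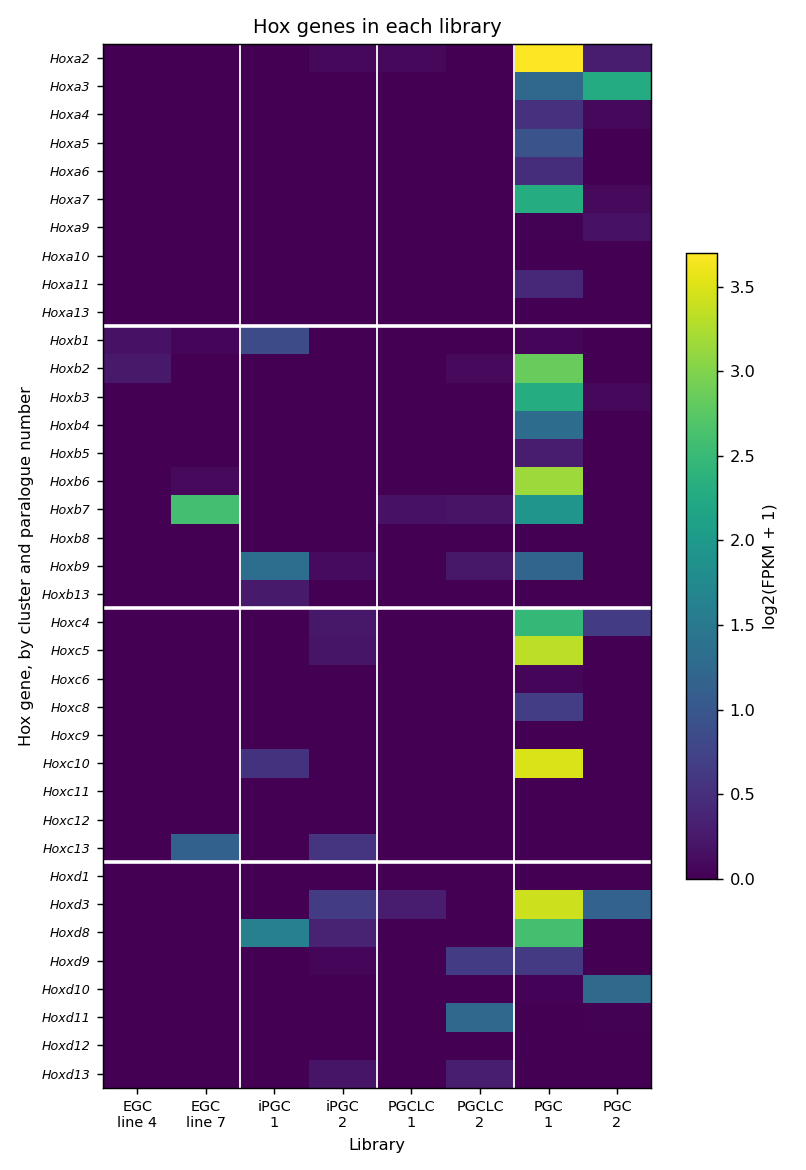
Hox genes (rows, by cluster and paralogue number) in each library (columns), coloured by log2(FPKM + 1). The filled cells lie mostly in the PGC library 1 column, and the brightest cell of another column is Hoxb7 in EGC line 7 at 5.07 FPKM.

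Anterior paralogues, numbers 1 to 4, pattern the hindbrain and neck. The 11 members summed to 0.0941 to 2.47 FPKM in the culture libraries, and to 39.7 FPKM in PGC library 1 and 6.19 FPKM in PGC library 2. In PGC library 1, 7 of them were detected.

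Hoxa2, which specifies the second pharyngeal arch, was listed at 0 in both EGC lines, at 0 and 0.0575 FPKM in iPGCs, at 0.0595 and 0 FPKM in PGCLCs, and at 12.0 and 0.210 FPKM in PGC libraries 1 and 2. It was the highest Hox value of the series, and only PGC library 1 passed 1 FPKM. Hoxb2, a hindbrain gene downstream of Egr2, had 0.196 and 0 FPKM in EGCs, 0 in both iPGC libraries, 0 and 0.0652 FPKM in PGCLCs, and 6.19 and 0 FPKM in PGC libraries 1 and 2. Its level in PGC library 2 was thus within the range of the cultures.

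Hoxd3, which shapes the first neck vertebrae, was listed at 0 in both EGC lines, at 0 and 0.560 FPKM in iPGCs, at 0.213 and 0 FPKM in PGCLCs, and at 9.71 and 1.24 FPKM in PGCs. Both PGC libraries lay above every culture library. Its paralogue Hoxa3, needed for thymus and parathyroid, was listed at 0 in all 6 culture libraries and had 1.37 and 3.83 FPKM in PGC libraries 1 and 2, so here library 2 was the higher. These were the only members detected in both PGC libraries.

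The remaining anterior members in PGC library 1 were Hoxc4 at 4.53 FPKM, Hoxb3 at 3.92, Hoxb4 at 1.48 and Hoxa4 at 0.441, while PGC library 2 held 0.568, 0.0591, 0 and 0.0598 FPKM of these genes. Hoxc4 reached 0.183 FPKM in iPGC library 2, and the other genes of that group were listed at 0 in all cultures. Hoxb1, a hindbrain gene, behaved otherwise: it peaked at 0.789 FPKM in iPGC library 1, the library of lowest depth, and was detected in no library.

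Central paralogues, numbers 5 to 8, pattern the thorax. Their 11 members held 0 to 5.13 FPKM in the culture libraries, and 31.0 and 0.0709 FPKM in PGC libraries 1 and 2, so PGC library 2 lay inside the range of the cultures.

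Hoxc5 was listed at 0 in both EGC lines, at 0 and 0.155 FPKM in iPGCs, at 0 in both PGCLC libraries, and at 9.08 and 0 FPKM in PGC libraries 1 and 2. Hoxb6, which acts in lateral mesoderm and blood progenitors, had 0 and 0.0639 FPKM in EGCs, 0 in both iPGC and both PGCLC libraries, and 7.92 and 0 FPKM in PGCs. Both genes were detected in PGC library 1 alone.

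Hoxd8 was listed at 0 in both EGC lines, at 2.06 and 0.273 FPKM in iPGCs, at 0 in both PGCLC libraries, and at 5.10 and 0 FPKM in PGC libraries 1 and 2. Both iPGC values therefore lay between the PGC values. Hoxb7, the neighbour of Hoxb6, had 0 and 5.07 FPKM in EGC lines 4 and 7, 0 in both iPGC libraries, 0.139 and 0.140 FPKM in PGCLCs, and 2.79 and 0 FPKM in PGCs. It was the highest Hox value outside PGC library 1, and the other EGC line was at 0. In EGC line 7 its neighbours Hoxb6 and Hoxb8 were at 0.0639 and 0 FPKM.

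The other central members in PGC library 1 were Hoxa7 at 3.91 FPKM, Hoxa5 at 0.937, Hoxc8 at 0.592, Hoxa6 at 0.398, Hoxb5 at 0.227 and Hoxc6 at 0.0455. All 6 were listed at 0 in every culture library, and among them PGC library 2 held a value above 0 for Hoxa7 alone, 0.0709 FPKM. Hoxb8 was at 0 throughout.

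Posterior paralogues, numbers 9 to 13, pattern the lower trunk, limbs and genital tubercle. The 16 members held 0 to 2.38 FPKM in the cultures, and 12.5 and 1.58 FPKM in PGC libraries 1 and 2. Hoxc10, which marks the lumbar region and hindlimb, made up most of the PGC library 1 sum. It was listed at 0 in both EGC lines, at 0.463 and 0 FPKM in iPGCs, at 0 in both PGCLC libraries, and at 10.2 and 0 FPKM in PGC libraries 1 and 2.

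Outside Hoxc10, posterior values were low and scattered over libraries. Hoxb9 had 0 in both EGC lines, 1.51 and 0.0815 FPKM in iPGCs, 0 and 0.175 FPKM in PGCLCs, and 1.31 and 0 FPKM in PGCs, so iPGC library 1 was the highest. Hoxd10 was detected in PGC library 2 alone, at 1.43 FPKM against 0.0245 in library 1. Hoxd11 reached 1.39 FPKM in PGCLC library 2, Hoxc13 reached 1.23 FPKM in EGC line 7, and neither passed 0.0131 FPKM in a PGC library. Hoxd9 had 0.571 FPKM in PGCLC library 2 and 0.550 FPKM in PGC library 1. Hoxa11, at 0.341 FPKM, was above 0 in PGC library 1 alone. Hoxa9, Hoxb13 and Hoxd13 stayed at 0.243 FPKM or less in every library.

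**Figure D3:**
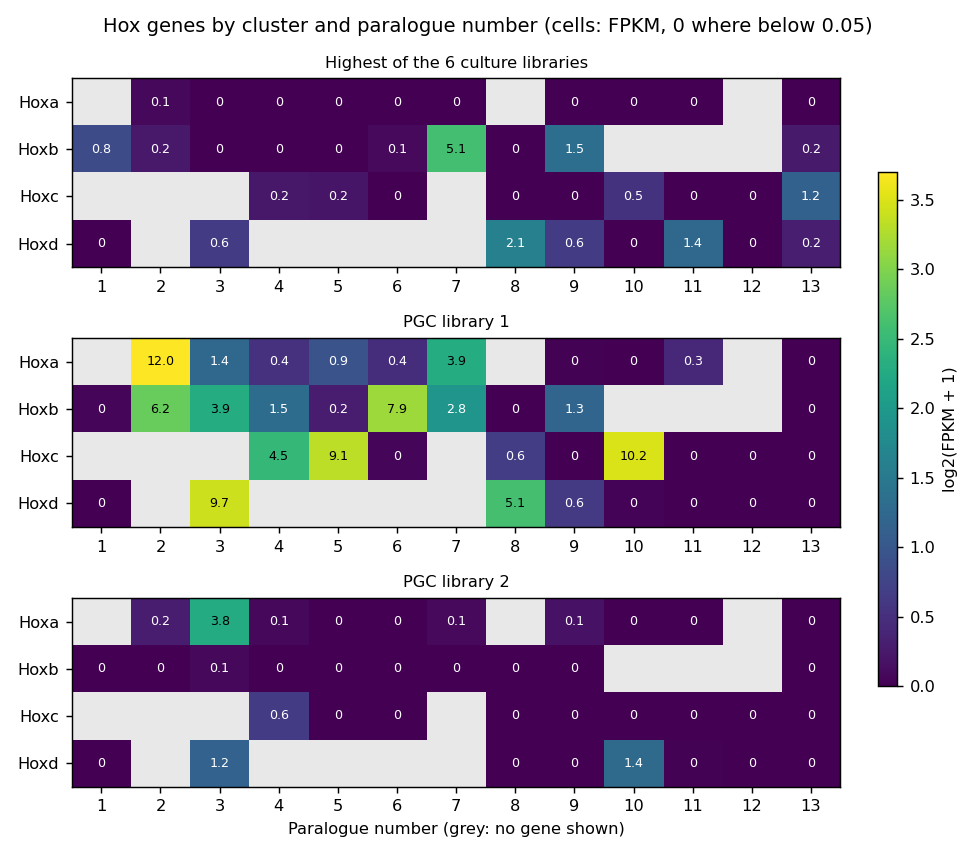
Hox genes laid out by cluster (rows) and paralogue number (columns), with FPKM printed in each cell (0 stands for values below 0.05) and colour giving log2(FPKM + 1). The top panel gives the highest of the 6 culture libraries for each gene, and the lower panels give PGC libraries 1 and 2. In library 1 the filled cells lie mostly between paralogues 2 and 8 and in all 4 clusters, with Hoxc10 at 10.2 FPKM beyond them.

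All 4 clusters contributed in PGC library 1. Hoxc gave 24.5 FPKM (29.4% of the Hox sum), Hoxb 23.9 FPKM (28.7%), Hoxa 19.4 FPKM (23.4%) and Hoxd 15.4 FPKM (18.5%). The order rests on members whose exons overlap another listed gene: without them, a choice made after seeing the data, Hoxa gave 19.1 FPKM (35.7%), Hoxd 15.4 FPKM (28.8%), Hoxb 13.8 FPKM (25.8%) and Hoxc 5.17 FPKM (9.68%). PGC library 2 was uneven, with 4.53 FPKM from Hoxa, 2.69 from Hoxd, 0.568 from Hoxc and 0.0591 from Hoxb. In the cultures, Hoxc was listed at 0 in EGC line 4 and in both PGCLC libraries, and Hoxd was listed at 0 in both EGC lines.

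By paralogue number, the PGC library 1 sums were 0.0319 FPKM for number 1, 18.2 for 2, 15.0 for 3, 6.45 for 4, 10.2 for 5, 8.36 for 6, 6.70 for 7, 5.69 for 8, 1.88 for 9, 10.2 for 10 and 0.341 for 11. Numbers 12 and 13 were listed at 0. Expression in that library thus began at paralogue 2, and past number 8 it rested on Hoxc10.

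Some detected members of PGC library 1 were neighbours by number in the same cluster, in the runs Hoxa2 and Hoxa3, Hoxb2 to Hoxb4, Hoxb6 and Hoxb7, and Hoxc4 and Hoxc5. Hoxa7, Hoxb9 and Hoxc10 stood apart from these runs. Hoxd3 and Hoxd8, also detected, follow each other among the listed Hoxd members.

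Some of these levels cannot be assigned to a gene with certainty. Hoxc5 and Hoxc10 share 166 bases of annotated exon on the same strand. Hoxb2 and Hoxb3 share 953 and 2250 exon bases with the antisense transcript Hoxb3os, and whether reads were assigned by strand is not given in the sources used here. Hoxb3os itself had 8.77e-05 and 0.968 FPKM in EGC lines 4 and 7, 0 in both iPGC libraries, 0 and 3.2e-07 FPKM in PGCLCs, and 5.67 and 0 FPKM in PGC libraries 1 and 2. It followed Hoxb2 and Hoxb3 in being highest in PGC library 1. Without the 6 members that share exons with another listed gene, a choice made after seeing the data, the Hox sums were 2.28 and 6.45 FPKM in EGCs, 4.95 and 1.82 FPKM in iPGCs, 0.411 and 2.58 FPKM in PGCLCs, and 53.4 and 7.65 FPKM in PGCs.

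No Hox gene passed the test between groups. A gene entered the test only if 2 or more libraries detected it, as for 5 of the 38 members: Hoxa3, Hoxb7, Hoxb9, Hoxd3 and Hoxd8. With limma on log2(FPKM + 1) and Benjamini-Hochberg adjustment over 11083 genes at 0.05, 0 of the 5 were called in EGCs, iPGCs or PGCLCs against PGCs, where 0.74%, 0.794% and 1.06% of all genes were called. At an unadjusted p under 0.05 there were 2 members in each of these comparisons, Hoxa3 and Hoxd3, beside 17.2%, 19.5% and 19.5% of all genes at that level. Both members passed the filter only through the PGC libraries, the group they were then tested against. Their share of the 5 therefore cannot be read against that of all genes. Between PGCLCs and iPGCs 0 members were called at either level (0.018% of all genes called), and among the 4 groups 0 were called (0.505% of all genes called). By that last test the same 2 members had an unadjusted p under 0.05, as did 19.2% of all genes, with the same limit. The comparisons with PGCs share the PGC libraries and are not independent of each other.

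Hoxa3, listed at 0 in all 3 culture groups, had limma adjusted p = 0.139 in EGCs, 0.124 in iPGCs and 0.117 in PGCLCs against PGCs. Hoxd3, listed at 0 in EGCs (limma adjusted p = 0.175), had log2 differences against PGCs of -1.97 ± 0.74 (SE) in iPGCs (adjusted p = 0.195) and -2.15 ± 0.74 in PGCLCs (0.160). Hoxd8, listed at 0 in EGCs and PGCLCs (limma adjusted p = 0.470 and 0.440), differed by -0.32 ± 0.83 in iPGCs (0.864). Hoxb7, at 0 in iPGCs, stood at 0.34 in EGCs and -0.77 in PGCLCs (SE 0.91 each), and Hoxb9, at 0 in EGCs, at 0.12 in iPGCs and -0.49 in PGCLCs (SE 0.60 each). None of these values of Hoxd8, Hoxb7 and Hoxb9 passed even before adjustment. The pseudocount of 1 understates the differences of genes this low. Over all tested genes the median log2 difference was 0.07 in EGCs, 0.47 in iPGCs and 0.44 in PGCLCs, so the Hox differences in iPGCs and PGCLCs stand against an upward shift of the whole table.

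Members detected in PGC library 1 alone could not enter the test. With no expression filter, 30 members entered and 0 were called in any comparison with PGCs by limma, where 0.0918%, 0.118% and 0% of 15250 genes were called in EGCs, iPGCs and PGCLCs. Among the 4 groups 0.0787% were called, and again 0 members. In each comparison with PGCs, 3 of the 30 members had an unadjusted p under 0.05, namely Hoxa3, Hoxd3 and Hoxc4. Of all genes, 13.4%, 15.9% and 14.6% were at that level. A count this small does not set the Hox genes apart from all genes. The lowest adjusted p was 0.129, 0.116 and 0.122. Without PGC library 1, 0 of the 38 members passed the filter, and without PGC library 2, 3 did and 0 were called.

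Other transcripts moved with the Hox genes in PGC library 1. The listed markers of posterior mesoderm and mesenchyme summed to 3.15 and 2.58 FPKM in EGCs, 17.9 and 6.23 FPKM in iPGCs, 2.99 and 20.1 FPKM in PGCLCs, and 81.0 and 29.2 FPKM in PGC libraries 1 and 2. Of its 15 measured genes, 0 to 6 were detected in the culture libraries, 11 in PGC library 1 and 4 in PGC library 2. T, the brachyury factor of the primitive streak and tail bud, stood at 37.9 FPKM in PGC library 1 and 0 in library 2, and Meox1 of the somites at 6.59 and 0. T alone thus gave 37.9 of the 81.0 FPKM in PGC library 1. Other listed genes were as high or higher in PGC library 2, with 7.11 and 13.4 FPKM of Tbx4, 0.139 and 3.77 FPKM of Msx1 and 7.87 and 8.23 FPKM of Msx2 in PGC libraries 1 and 2. Mesp1 was at 0 in every library and Tbx6 at 0 in PGC library 1, so not all defining mesoderm genes were present.

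Of the 8 measured genes on the blood and macrophage list, 0 were detected in the cultures, 6 in PGC library 1 and 2 in PGC library 2. Its sums were at most 1.24 FPKM in the cultures, and 134 and 14.5 FPKM in PGC libraries 1 and 2, with the macrophage lysozyme Lyz2 at 62.1 and 0.713 FPKM in the PGC libraries. The genes detected in both PGC libraries were Fcer1g, at 21.4 and 4.85 FPKM, and S100a9, at 15.6 and 8.77 FPKM. Both were at 0 in all cultures, and Tyrobp was at 0 in every library. Afp, a yolk sac and endoderm protein on the hindgut list, had 82.6 and 0 FPKM in PGC libraries 1 and 2, while Foxa1, Foxa2 and Sox17 of that list were at 0 in library 1. The hindgut list as a whole summed to 162 to 219 FPKM in the cultures and to 152 and 84.0 FPKM in PGC libraries 1 and 2.

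Neural markers summed to 55.7 FPKM in PGC library 1, of which Map2 gave 53.3, and to 0.969 FPKM in PGC library 2, with Sox1 and Neurog2 at 0 in both. The endothelial list summed to 21.7 and 56.5 FPKM in PGC libraries 1 and 2, mostly Pecam1, which germ cells also express. Germ cell markers ran the other way, with 665 and 1586 FPKM in PGC libraries 1 and 2, and 10 and 11 of 12 detected. Ifitm3 alone had 99.1 and 599 FPKM there, and of the list only Itgb3 was higher in library 1, at 19.1 and 14.3 FPKM. The part of these other transcripts in the Hox result was not tested. In such bulk samples, fewer cells of a type and less RNA per cell cannot be told apart.

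**Figure D4:**
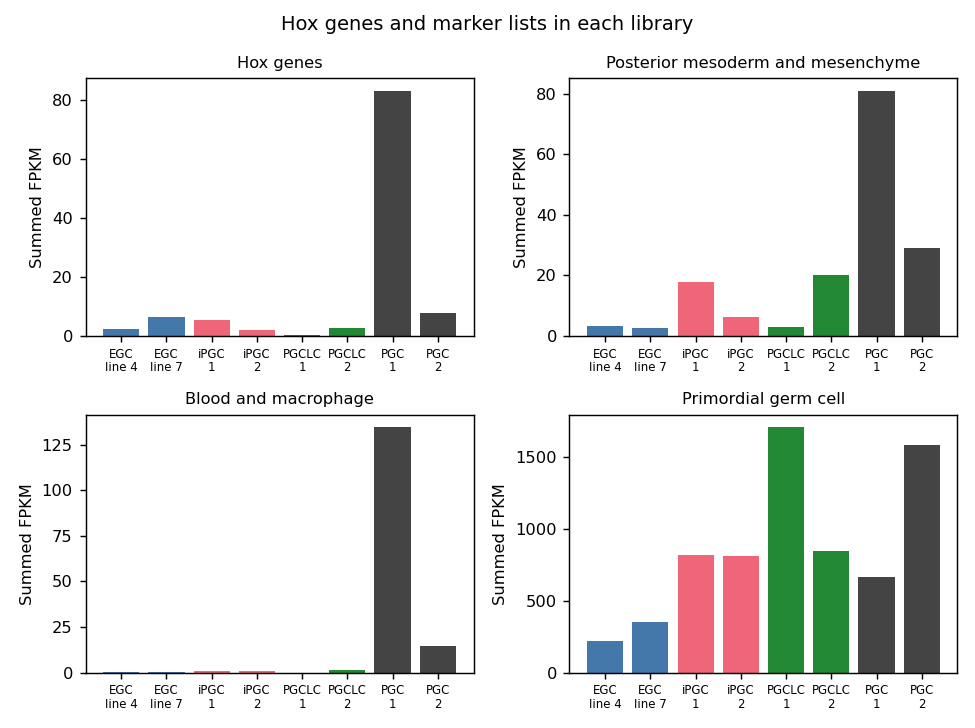
Summed FPKM in each of the 8 libraries (bars, linear axes starting at 0) of the Hox genes and of 3 marker lists. PGC library 1 has the highest bar for Hox genes (83.1), for posterior mesoderm and mesenchyme (81.0) and for blood and macrophage genes (134), and a lower bar than PGC library 2 for germ cell genes (665 against 1586).

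The partners and regulators of Hox genes were measured more evenly than the Hox genes themselves. All 9 TALE homeodomain cofactors (Pbx, Meis and Pknox genes) passed the filter, and limma called 0 of 9 in every comparison. Their summed level was 31.4 and 37.9 FPKM in EGCs, 49.8 and 44.0 FPKM in iPGCs, 24.7 and 44.4 FPKM in PGCLCs, and 154 and 75.8 FPKM in PGCs, so both PGC libraries lay above all cultures. Their median log2 difference against PGCs was -1.23 in EGCs, -0.92 in iPGCs and -1.38 in PGCLCs, beside the medians of all genes given above.

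Meis2, which helps carry Hox complexes to their sites, had 3.06 and 1.44 FPKM in EGCs, 0.411 and 2.02 FPKM in iPGCs, 0.284 and 7.36 FPKM in PGCLCs, and 27.9 and 10.2 FPKM in PGCs. Each PGC library lay above every culture library. Pbx2 did not separate the groups, with 12.0 to 25.6 FPKM in the cultures and 64.5 and 9.06 FPKM in PGC libraries 1 and 2. Pknox1 had 2.75 to 12.3 FPKM in the cultures and 17.6 and 10.7 FPKM in PGCs, which overlapped EGC line 7. Meis1 and Meis3 were highest in PGC library 1, at 5.23 and 13.8 FPKM, and low in PGC library 2, at 0.0893 and 0.979 FPKM. Unlike most Hox genes they were detected in culture, Meis1 at 2.23 and 1.67 FPKM in PGCLCs and Meis3 at 1.25 FPKM in EGC line 7 and 3.26 and 1.02 FPKM in iPGCs. The lowest limma adjusted p of the list was that of Pknox2, 0.0934 in EGCs and 0.0770 in PGCLCs against PGCs. It had 0.115 and 0 FPKM in EGCs, 3.34 and 1.03 FPKM in iPGCs, 0.0841 and 0 FPKM in PGCLCs, and 5.81 and 3.93 FPKM in PGCs.

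**Figure D5:**
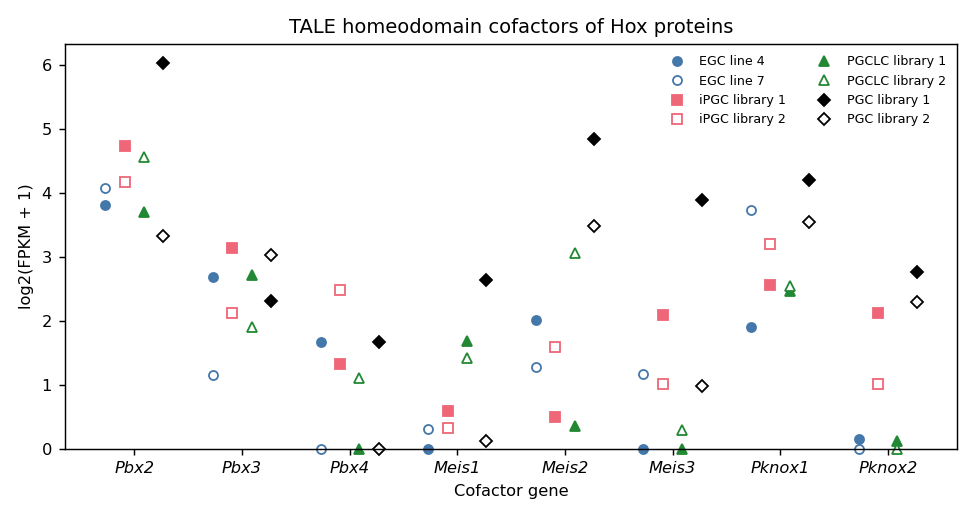
TALE cofactor genes on the horizontal axis and log2(FPKM + 1) on the vertical axis, 1 symbol per library, filled for the first library or line of a group and open for the other. Meis2 has both PGC symbols above all culture symbols, while Pbx2 has the PGC symbols at the top and bottom (64.5 and 9.06 FPKM).

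The list of upstream activators of the clusters summed to 6.22 and 6.38 FPKM in EGCs, 12.3 and 5.10 FPKM in iPGCs, 0.749 and 2.78 FPKM in PGCLCs, and 43.5 and 2.48 FPKM in PGC libraries 1 and 2. T, at 37.9 FPKM, made up most of the sum in PGC library 1, and it is on the mesoderm list too. Cdx1, Cdx2 and Cdx4, homeodomain factors that switch on central Hox genes in the tail bud, did not pass 2.75 FPKM in any library, and Cdx2 had 0.0722 FPKM in PGC library 1 against 1.91 in library 2. Of the 9 measured genes on the list, 5 were tested and limma called 0. Fgf8 was at 2.39 to 3.30 FPKM in EGCs and iPGCs and at 0.558 FPKM or less in PGCLCs and PGCs. Egr2, an activator of Hoxa2 and Hoxb2 in the hindbrain, had 0.0287 and 0.278 FPKM in EGCs, 2.76 and 0.852 FPKM in iPGCs, 0 in both PGCLC libraries, and 3.18 and 0 FPKM in PGCs. Gdf11, a signal for posterior identity, reached 2.19 FPKM in iPGC library 1 and 1.88 FPKM in PGC library 1.

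In the retinoic acid list 9 of 14 genes were tested. Limma called 1 in EGCs against PGCs and 0 in the other comparisons. Crabp1, a cytoplasmic retinoic acid binding protein, had 0 and 1.93 FPKM in EGC lines 4 and 7, 20.2 and 23.4 FPKM in iPGCs, 3.94 and 8.20 FPKM in PGCLCs, and 65.6 and 22.1 FPKM in PGCs. It fell by 4.52 ± 0.75 on the log2 scale in EGCs (limma adjusted p = 0.0454), and its differences in iPGCs (-0.78, adjusted p = 0.603) and PGCLCs (-2.54, adjusted p = 0.125) did not pass by limma. The EGC call was lost with a pseudocount of 0.1 (limma adjusted p = 0.0611) and with no filter (0.112). It was also lost when any 1 of 7 libraries was left out and held without PGC library 2, with limma adjusted p from 0.0404 to 0.237 and log2 differences from -5.29 to -3.74. Crabp2 had 0 to 11.1 FPKM in the cultures and 6.67 and 26.1 FPKM in PGCs. The receptors Rara and Rxrb were present in every library, at 4.53 to 15.9 and 2.47 to 12.8 FPKM in the cultures and at 3.95 and 2.36, and 5.34 and 4.52, FPKM in PGC libraries 1 and 2. The degrading enzymes Cyp26a1, Cyp26b1 and Cyp26c1 stayed below 1 FPKM throughout.

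Polycomb genes, which keep Hox clusters silent, were abundant in all groups. The 26 genes summed to 1064 and 977 FPKM in EGCs, 1226 and 1037 FPKM in iPGCs, 1346 and 1102 FPKM in PGCLCs, and 527 and 781 FPKM in PGCs, so both PGC libraries lay below all cultures. Limma called 0 of the 24 tested in every comparison. Their median log2 differences against PGCs were 0.55 in EGCs, 0.68 in iPGCs and 0.66 in PGCLCs, beside 0.07, 0.47 and 0.44 over all tested genes. Much of the shift in iPGCs and PGCLCs is thus shared by the whole table. Ezh2, the methyltransferase that writes the repressive mark on histone H3, had 44.8 and 56.9 FPKM in EGCs, 91.4 and 69.2 FPKM in iPGCs, 130 and 92.2 FPKM in PGCLCs, and 87.5 and 79.3 FPKM in PGCs. Its level in PGC library 1 was close to that in library 2. Jarid2, an accessory subunit, had 123 to 319 FPKM in the cultures and 53.1 and 202 FPKM in PGCs, and Mtf2, which guides the complex to CpG islands, 146 to 245 and 70.8 and 129 FPKM. Phc1 had 72.3 to 153 FPKM in the cultures and 29.6 and 29.2 FPKM in PGCs, a gap in which no library overlapped.

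Trithorax genes, which counter Polycomb, summed to 282 to 437 FPKM in the cultures and 402 and 439 FPKM in PGCs, and limma called 0 of 14 in every comparison. Kmt2b, the activator at many silent CpG islands, had 95.2 and 22.0 FPKM in EGCs, 19.8 and 36.6 FPKM in iPGCs, 37.6 and 20.8 FPKM in PGCLCs, and 73.6 and 61.5 FPKM in PGCs. Only EGC line 4 lay above the PGC libraries. Of the list of other homeobox regulators, 4 of 11 measured genes were tested and limma called 0. Otx2, a forebrain and midbrain gene, had 12.6 and 5.95 FPKM in EGCs, 8.09 and 5.37 FPKM in iPGCs, 29.0 and 0.487 FPKM in PGCLCs, and was listed at 0 in both PGC libraries. Six4 had 4.70 to 10.9 FPKM in the cultures and 3.28 and 12.2 FPKM in PGCs, and Gbx2 0.46 to 2.93 and 5.32 and 3.53 FPKM.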

How the data were processed

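RNA from 8 mouse libraries, 2 per group, was amplified with an Ovation kit and sequenced as 50-base single-end reads in 2 lanes, per the labels' protocols. Values are FPKM per gene as deposited, and the submitters' processing notes name the tools TopHat2 and Cufflinks with the genome GRCm38 (mm10). How strand, annotation and filters were set is not given in the sources used here. Cufflinks divides shared reads among overlapping genes, which can move levels between neighbours, and an exact 0 can be a failed estimate, so neither folds nor log2 differences are printed for a gene against a group at 0. Read counts were not part of the table, which excludes count models, and precision is limited by 2 libraries a group.

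Of 20171 entries, 18 extra entries of repeated identifiers were dropped, keeping the highest mean. Coordinates, strands and exons are from GENCODE M21 (GRCm38), which held 19747 of the identifiers, and promoters from RefSeq (GRCm38.p6). Approximate depth was read from the steps between low FPKM values of genes with 1 transcript over 1 kb. The 11083 genes that reached 1 FPKM in 2 or more libraries were tested with limma 3.58.1 in R 4.3.3 on log2(FPKM + 1), with trend and robust variance, all 8 libraries sharing the spread (4 residual degrees of freedom, median prior 4.53) and two-sided p-values adjusted by Benjamini-Hochberg at 0.05. The code was tested on simulated data.

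The members, the 6 lists of cofactors and regulators and the 7 marker lists were chosen with earlier results of these data known. Members at 5 FPKM or more in any library are given in every library. Of each list of cofactors and regulators, the called genes and up to 4 with the highest mean are given, and any other gene named was chosen after its values were seen. Some genes are counted in totals but not reported here by name. The naive pluripotency list summed to 390 to 675 FPKM in the cultures and 88.9 and 148 FPKM in PGCs.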

Additional observations from a re-analysis of the deposited data

How the results depend on the processing

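Limma called 0 Hox genes in every comparison under every alternative, of which the fit without PGC library 1 tested none. Many Hox log2 differences could not change direction, so the share that kept it says little about robustness. A difference stays the same with no filter, or without a library from a group outside the comparison. Hoxb7 in EGCs against PGCs, for example, stayed at 0.34 in such fits. Hoxa3 was at 0 in every culture library and so could not reverse. With these limits, of 145 recomputed Hox log2 differences, 140 kept their direction and 0 crossed the threshold. Those of 3 uncalled genes reversed: Hoxb7 in EGCs against PGCs without PGC library 2 (-0.62), Hoxb9 in iPGCs against PGCs with quantile normalization (-0.50) or without PGC library 2 (-0.49), and Hoxd8 in iPGCs against PGCs with a pseudocount of 0.1 (0.31) or without iPGC library 2 (0.31). Leaving out 1 library at a time gave -0.62 to 1.64, -0.49 to 0.73 and -1.63 to 0.31 for these genes where they still passed the filter. They did not without PGC library 1, nor did Hoxb7 without EGC line 7 or Hoxb9 and Hoxd8 without iPGC library 1.

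Counts of all called genes moved more, and the cause was not tested. With a pseudocount of 0.1 there were 166 in iPGCs against PGCs, 183 in PGCLCs against PGCs and 98 among the 4 groups. With no filter the comparisons with PGCs called 14 (EGCs), 18 (iPGCs) and 0 (PGCLCs), 0 between PGCLCs and iPGCs and 12 among the groups. Quantile normalization gave 45, 36 and 1 in iPGCs and PGCLCs against PGCs and PGCLCs against iPGCs. Leaving out each library in turn gave 1 to 96 genes for EGCs, 4 to 208 for iPGCs and 0 to 279 for PGCLCs, all against PGCs, 0 to 5 between PGCLCs and iPGCs and 12 to 91 among the groups. The highest counts against PGCs came without PGC library 2, and the lowest came without a library of the culture group compared. With replicate number as a block, 10, 2 and 0 genes were called in iPGCs and PGCLCs against PGCs and in PGCLCs against iPGCs, where the same 6 libraries without the block gave 32, 39 and 3. Same-numbered libraries shared only a number, with correlations of deviations of 0.00707 for PGCs and iPGCs, -0.0295 for PGCs and PGCLCs and 0.0582 for iPGCs and PGCLCs. EGC lines carry other numbers, so no block could be fitted for them.

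Detected members at 0.1 FPKM numbered 3 and 2 (EGC lines 4 and 7), 6 and 6 (iPGCs), 2 and 5 (PGCLCs) and 21 and 7 (PGCs). At 5 FPKM they were 0 and 1 in EGCs, 0 in iPGCs and PGCLCs, and 7 and 0 in PGCs. Rescaled to TPM, another unit, mean Hox sums were 24.8 ± 15.7 in EGCs, 16.0 ± 9.68 in iPGCs, 6.97 ± 7.81 in PGCLCs and 249 ± 297 in PGCs (SD, n = 2 each), with 459 and 39.2 in PGC libraries 1 and 2. At a depth of 3.22 M reads, iPGC library 1 limits what can be seen of low members there.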

Other observations

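Inside the Hox clusters, the table also lists noncoding entries. Mir196b, Hoxa11os, Mir10a, Hotair, Mir615 and Mir10b were listed at 0 in all 8 libraries, which leaves Hoxb3os as the entry of this kind above 0.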
